A study of Mus musculus with 4 samples.

Results

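The CXCR2 chemokines and the G-CSF axis were followed through leukocytes of mouse pancreatic tumours, as 7 genes of the 33696 in the deposited matrices. The genes were listed by name: the chemokines Cxcl1, Cxcl2, Cxcl3 and Cxcl5, their receptor Cxcr2, the cytokine gene Csf3 (G-CSF) and its receptor Csf3r. They were chosen by their UMI counts in these same 4 libraries, across cell types and groups, so their levels are given as descriptions. Tumours were subcutaneous, grown from a KPC carcinoma line that came from Pdx1-Cre mice with the allele Trp53 LSL.R172H/+, in male C57BL/6NHsd hosts of 8 to 10 weeks of age. The 4 groups were untreated tumours, the STING agonist ADU-S100 injected once into the tumour at 2 µg, an agonistic antibody to the lymphotoxin-β receptor (anti-LTβR, clone 4H8) given intraperitoneally 4 times, and both agents together (combination). Live CD45+ cells were sorted on day 14 from 10 pooled tumours per group and sequenced as 1 library each. There is therefore no replicate, no comparison between libraries could be tested, and every interval below covers counting error alone.

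Neutrophils leave the marrow and enter tissue under the control of these genes. CXCL1, CXCL2, CXCL3 and CXCL5 carry the ELR motif and bind CXCR2, a G-protein-coupled receptor that steers neutrophils toward their source. G-CSF, the product of Csf3, acts on its receptor in the marrow to make neutrophils and release them into blood. In pancreatic carcinoma both arms are known to be made by tumour cells, fibroblasts and myeloid cells.

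The libraries held 8730 (untreated), 15404 (ADU-S100), 14634 (anti-LTβR) and 16322 (combination) cell barcodes with medians of 2157.5 to 4712 UMIs (unique molecular identifiers, 1 per captured molecule). After the cell limits of the study and removal of doublets, which took a further 260, 885, 816 and 1032 cells, 7516, 13441, 13225 and 14666 remained. Leukocytes made up 7360, 13223, 13024 and 14385 of these, and a single cluster of non-leukocytes the rest. Between 34 and 83 barcodes were shared by each pair of libraries, at most 0.539% of the smaller one. Ptprc, which encodes CD45, was detected in 85.0% to 92.9% of leukocytes and in 12.2% to 23.5% of the non-leukocytes, which expressed carcinoma and fibroblast markers despite the sort. Neutrophils, with all 10 of their markers detected in each library, were 492, 5289, 967 and 1293 cells, and macrophages and monocytes 2834, 3623, 5509 and 5997 cells. Levels are given as UMIs per 1000000 UMIs (CPM) summed over the cells of a class, with exact Poisson 95% intervals.

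Of the 4 ligand genes, 3 share a run of promoter sequence. The mouse CXC ligand genes lie side by side on chromosome 5, and the 120 bases before the RefSeq start sites (GRCm38.p6, plus strand) are shown because the 3 most abundant ligands hold the same 11 bases there, printed in capitals. This is the longest run that all 3 printed pieces of 120 bases share, and it contains a form of the NF-κB element.
Cxcl1, chr5:90891125-90891244: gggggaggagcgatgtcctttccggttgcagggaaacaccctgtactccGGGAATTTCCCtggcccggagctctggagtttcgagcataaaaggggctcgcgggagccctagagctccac
Cxcl2, chr5:90903779-90903898: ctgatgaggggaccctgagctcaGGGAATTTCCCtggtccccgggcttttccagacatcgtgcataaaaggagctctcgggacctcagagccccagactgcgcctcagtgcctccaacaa
Cxcl3, chr5:90785981-90786100: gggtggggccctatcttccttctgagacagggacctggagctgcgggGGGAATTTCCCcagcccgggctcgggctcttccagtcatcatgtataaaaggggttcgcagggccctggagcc
The shared run starts at -71, -97 and -73 from the start site of Cxcl1, Cxcl2 and Cxcl3. Searched as GGGAATTTCCC and its reverse complement GGGAAATTCCC, it occurs in 14 of 32851 RefSeq promoter windows (0.0426%). The windows searched are longer than the printed pieces, at 300 bases for these genes, and the claim of the longest run does not extend to them. It was chosen after these sequences were seen, and a match of letters shows no binding. The windows of Cxcr2 (gene at chr1:74153994-74161246) and Csf3r (gene at chr4:126023441-126044975) hold no match. The Csf3r window, chr4:126024409-126024708, lies inside the interval given for that gene. The windows of Cxcl5 (gene at chr5:90759298-90761625) and Csf3 (gene at chr11:98700183-98703631) were not analysed here. Because Cxcl1, Cxcl2 and Cxcl3 are close paralogs, reads could be shared or lost between them in counting.

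Cxcl2 was the most abundant ligand in UMIs and was highest in neutrophils in all 4 libraries. Over all leukocytes its level was 1912 CPM in untreated tumours, 13309.6 after ADU-S100, 2959 after anti-LTβR and 3425 after the combination. Within neutrophils it was 33729.7, 47238, 31038 and 34983 CPM in the same order. Macrophages and monocytes held 1697, 6677, 2950 and 3112 CPM. The ADU-S100 library was the highest in both classes, and the other treated libraries exceeded the untreated one in macrophages but not uniformly in neutrophils. With cells thinned to 1000 UMIs, Cxcl2 was detected in 95.1% to 97.6% of neutrophils and in 36.1%, 67.9%, 47.5% and 52.8% of macrophages and monocytes (51.5%, 81.8%, 58.6% and 63.3% before thinning). T cells, which should lack the message, gave 2.84%, 10.8%, 4.23% and 8.84% after thinning and 0.333% to 0.854% of the neutrophil level. Their share was highest in the library with most neutrophils, and the part of free RNA in the Cxcl2 of other classes was not tested.

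Dendritic cells had a different order, with 299, 880.5, 968 and 1502 CPM of Cxcl2. Their highest level was thus in the combination library, 0.77 (0.71 to 0.83) above ADU-S100 on the log2 scale. That direction turned to -0.74 when each cell was named by its own markers without clusters. Mast cells and basophils, only 79 cells in all, had 2072, 19732, 21406 and 1142 CPM, but 298 of 933 UMIs in the ADU-S100 library and 335 of 455 in the anti-LTβR library came from single cells.

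Cxcl3 had the same leading class as Cxcl2 at a lower level. Leukocyte levels were 134, 1269, 218 and 273 CPM. Neutrophils had 2399, 4704, 2579.8 and 3293 CPM, while macrophages and monocytes had 71.8, 409.8, 129.7 and 134 CPM. Neutrophils ranked first in all 4 libraries, with intervals clear of every other class. A further 28.6%, 13.0%, 28.8% and 28.5% of the UMIs lay in cluster 7, which was 272, 819, 658 and 648 cells led by Adm, Gpnmb, Gdf15, Mmp12 and Hmox1. This cluster reached only 2 of the 10 macrophage markers and was left unnamed. Its Cxcl3 level was 731, 1786, 946 and 1330.3 CPM, in each library above that of cluster 2, the highest of the named macrophage and monocyte clusters, at 388, 847, 402 and 588 CPM. Thinned to 1000 UMIs, which left out 16.7%, 13.9%, 17.8% and 46.4% of neutrophils, Cxcl3 was detected in 36.3%, 53.1%, 41.5% and 50.1% of neutrophils and in at most 1.10% of T cells. Nearly all such neutrophils, 98.8% to 99.7%, also had a Cxcl2 UMI, against 92.0% to 95.5% of neutrophils without Cxcl3.

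Cxcl1, the ligand made by stroma and epithelium as well as myeloid cells, was sparse among leukocytes. Its leukocyte UMIs numbered 77, 1981, 416 and 238, or 1.77, 29.7, 6.77 and 5.32 CPM. The non-leukocyte cluster had the highest level in every library, at 86.9, 156, 111 and 85.7 CPM. Those few cells (156, 218, 201 and 281) held 60.9%, 9.54%, 32.6% and 37.2% of all kept Cxcl1 UMIs. Carcinoma markers were present there for 5, 7, 5 and 6 of 8 genes, with Cldn4 at 0 in all 4 libraries, and all 8 fibroblast markers were present. Among leukocytes, macrophages and monocytes gave 2.90, 39.1, 5.56 and 6.78 CPM, the ADU-S100 value standing apart. The unnamed cluster 7 held 598 Cxcl1 UMIs over all libraries, at 0 to 68.3 CPM. Neutrophils gave 2.16, 16.4, 26.9 and 12.5 CPM from 2, 200 (CPM interval 14.2 to 18.8), 47 and 19 UMIs, and 39 of the 47 in the anti-LTβR library came from 1 cell.

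Many Cxcl1 UMIs lay outside the kept cells. Of all deposited Cxcl1 UMIs, 84.0%, 40.2%, 21.5% and 18.5% lay in removed cells. Cells with over 5000 genes (498, 337, 190 and 48) held 1013, 1291, 160 and 13 of the UMIs, and in the combination library most of the removed ones, 73, lay in cells removed as doublets. When the upper limit was dropped, 97.9%, 70.1%, 90.6% and 53.8% of the Cxcl1 UMIs in those large cells fell in the non-leukocyte class.

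Cxcl5, known mainly from epithelium, was at the limit of detection. Leukocytes held 5, 9, 1 and 1 UMIs, too few for a ratio, and the non-leukocyte cluster of the untreated library held another 5. The single UMIs of the anti-LTβR and combination libraries lay under the floor of 3 UMIs, which was 0.0488 and 0.0671 CPM there. A removed cell of the anti-LTβR library, over the limit of 5000 genes, held 68 Cxcl5 UMIs.

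Csf3, which encodes G-CSF, was rare in every library and ranked highest in neutrophils. Leukocytes held 35, 915, 212 and 86 UMIs, or 0.803, 13.7, 3.45 and 1.92 CPM. Neutrophils had 25.9 (16.6 to 38.6), 43.8 (40.2 to 47.7), 50.4 (40.4 to 62.1) and 26.9 (19.3 to 36.5) CPM, with overlapping intervals between the untreated and combination libraries. Macrophages and monocytes had 0.299, 5.64, 1.92 and 0.993 CPM from 7, 180 (CPM interval 4.85 to 6.53), 60 (1.46 to 2.47) and 23 UMIs. The unnamed cluster 7 held 200 Csf3 UMIs over all libraries, at 1.75 to 23.1 CPM. The 2 neutrophil clusters differed: cluster 3 had 35.2 to 86.0 CPM over the libraries and cluster 5 had 17.6 to 26.0 CPM. After thinning, 1.59% to 2.64% of neutrophils had a Csf3 UMI and none of 1304, 546, 1821 and 1289 T cells did, with Clopper-Pearson 95% upper limits of 0.202% to 0.673%. Before thinning, T cells of the combination library held 3 Csf3 UMIs (0.898 CPM, 0.185 to 2.62), an interval overlapping that of macrophages and monocytes there. Neutrophils with Csf3 also had Cxcl3 in 4 of 8, 85 of 112, 14 of 21 and 9 of 11 cells, against 36.1%, 52.5%, 40.8% and 49.6% of those without Csf3.

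**Figure D1:**
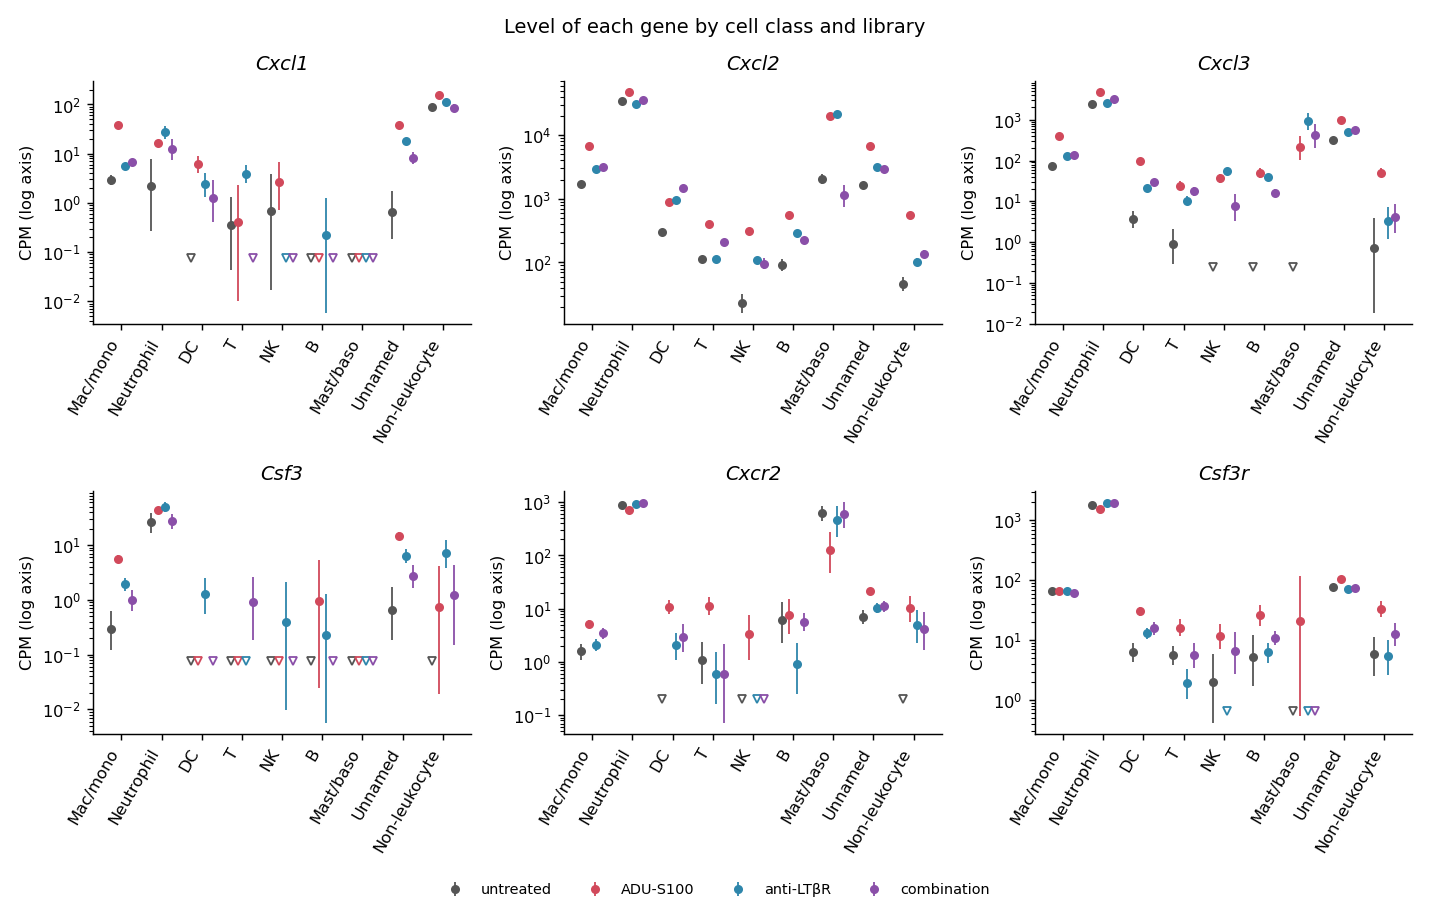
Level of 6 genes (CPM, log axis) in each cell class, with 1 point per library and exact Poisson 95% intervals; open triangles mark classes with no UMI. Neutrophils are highest for Cxcl2, Cxcl3, Csf3 and Csf3r in all 4 libraries, Cxcl1 is highest in non-leukocytes, and Cxcr2 is high in both neutrophils and mast cells and basophils.

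Cxcr2, the receptor for these ligands, lay mainly in neutrophils. Leukocyte levels were 21.8, 141, 29.4 and 38.0 CPM. Neutrophils held 86.1%, 94.1%, 89.3% and 87.2% of its UMIs, at 883, 725, 928 and 977 CPM. Inside the class the ADU-S100 library was the lowest, whereas over all leukocytes it was the highest. Macrophages and monocytes had 1.58, 5.23, 2.11 and 3.46 CPM, and T cells, which should lack the gene, 1.07, 11.4, 0.604 and 0.599 CPM. Macrophages and monocytes were above T cells with intervals apart only in the anti-LTβR and combination libraries. The intervals overlapped in the untreated library, and T cells were the higher after ADU-S100.

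Mast cells and basophils were the other named class with a high Cxcr2 level. The unnamed cluster 30, which was 20, 150, 63 and 51 cells led by Adgre4, Cd177 and Ceacam1, with 6 of 10 neutrophil markers, had 234, 180.5, 225 and 318 CPM of Cxcr2 and 461, 418, 652 and 727 CPM of Csf3r. Levels in mast cells and basophils were 633 (452 to 862), 127 (46.6 to 276), 470.5 (226 to 865) and 592 (324 to 994) CPM from 40, 6, 10 and 14 UMIs. The intervals overlapped those of neutrophils in the untreated and combination libraries. Cxcr2 UMIs were spread over 35 of 79 cells (44.3%), and no cell held more than 5. The class had 8, 8, 7 and 6 of 8 mast cell and basophil markers. The neutrophil markers Retnlg, Ly6g, Mmp8, Mmp9 and Wfdc21 were at 0 there in all 4 libraries, while the summed neutrophil list reached 9315 to 14663 CPM. In the untreated library, at 14663 CPM, only Il1r2 and Hdc of that list had any UMI. Csf3r gave 1 UMI in the class against 70 of Cxcr2.

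Csf3r, the G-CSF receptor, was shared by neutrophils and macrophages. Leukocyte levels were 85.5, 336, 102 and 113 CPM. Neutrophils had 1804, 1530.5, 1979.6 and 1982 CPM, and macrophages and monocytes 65.1, 66.6, 66.0 and 60.2 CPM, almost level over the 4 libraries. Macrophages and monocytes held 40.8%, 9.46%, 33.0% and 27.4% of the UMIs, and their level was 3.04% to 4.35% of that of neutrophils, whereas for S100a8, a neutrophil marker, it was 0.104% to 0.499%. Thinned to 1000 UMIs, Csf3r was detected in 6.34% to 6.80% of macrophages and monocytes (18.3% to 35.7% before thinning), in 70.1% to 77.5% of neutrophils and in 0.275% to 0.733% of T cells.

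The ratio of the 2 receptors in neutrophils did not differ between libraries beyond counting error. A UMI counts a molecule by its captured end, and of the UMIs of both receptors Cxcr2 made up 32.9%, 32.1%, 31.9% and 33.0% in neutrophils, with overlapping Clopper-Pearson 95% intervals from 30.6% to 34.8%. In mast cells and basophils it made up 98.6% (at least 92.4%) over all libraries, and in macrophages and monocytes 2.37%, 7.29%, 3.09% and 5.43%. Both receptors were higher in neutrophil cluster 5 (led by Mmp9, Cxcr2, Steap4 and Retnlg) than in cluster 3 (led by Gm20406, Cstdc4, Mgam, Hcar2 and Il36g): Cxcr2 was 1111 to 1276 against 454 to 609 CPM, and Csf3r 1905 to 2356 against 1169 to 1679.7 CPM. Cxcl2, Cxcl3 and Csf3 had the other order. Cxcl2 was 26118 to 39033 CPM in cluster 5 against 36374 to 52109.8 in cluster 3, and Cxcl3 1697 to 3717 against 3414 to 5289.9 CPM. Cxcl1 had 3.36 to 51.7 CPM in cluster 5 against 0 to 17.6 CPM in cluster 3, from 143 and 125 UMIs. Of the 143, 39 came from 1 cell of the anti-LTβR library, so no order is given for Cxcl1. In each library the level of Cxcl2, Cxcl3 and Csf3 was higher in cluster 3 and that of both receptors in cluster 5. The clusters were formed without the 7 genes but from other genes of the same cells, so this is a description. Cluster 3 held 198, 3502, 530 and 604 cells, and cluster 5 held 294, 1787, 437 and 689.

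**Figure D2:**
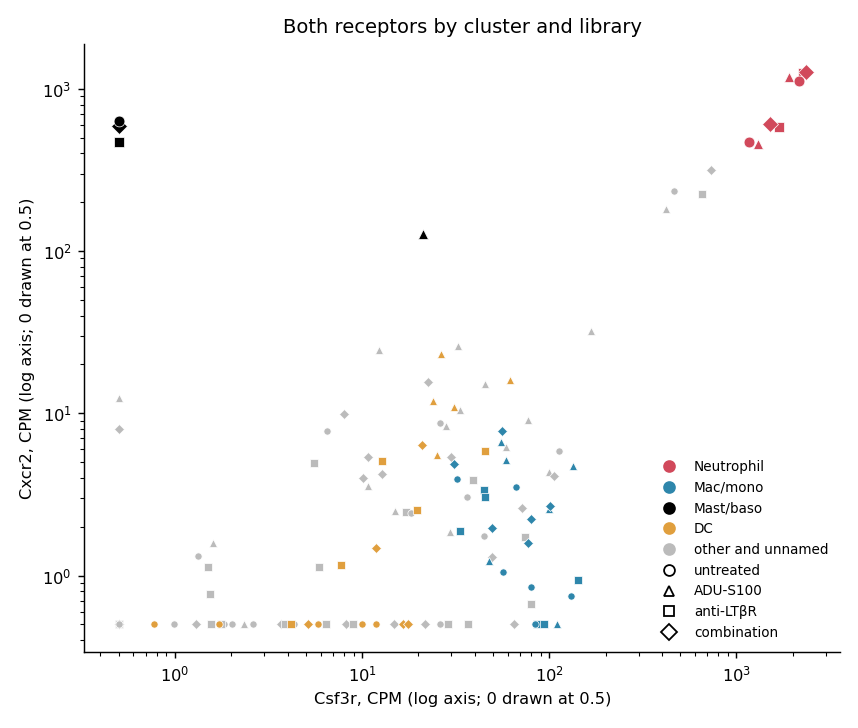
Cxcr2 against Csf3r (CPM, both log axes, values of 0 drawn at 0.5), with 1 point per cluster and library, coloured by cell class and shaped by library. The 2 neutrophil clusters lie at the upper right, mast cells and basophils have Cxcr2 at 127 to 633 CPM with Csf3r at or near 0, and macrophages and monocytes have Csf3r with little Cxcr2.

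The genes differed widely in how many cells held their UMIs. Of the kept Cxcl1 UMIs 50% lay in 6, 24, 10 and 14 cells, and 50% of those of Csf3 in 5, 43, 13 and 10. For Cxcl2 the same share took 304, 1496, 713 and 856 cells, and for Csf3r 345, 1328, 505 and 567. Cxcl3 (34, 485, 104 and 117 cells) and Cxcr2 (87, 695, 164 and 222) lay between.

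The 10 cells with most UMIs held 65.0%, 29.1%, 50.1% and 41.4% of Cxcl1 and 74.3%, 24.2%, 45.8% and 52.3% of Csf3. They held 28.9%, 3.88%, 12.7% and 12.7% of Cxcl3, 9.91%, 1.76%, 6.17% and 4.10% of Cxcr2, 4.26%, 0.909%, 1.92% and 1.87% of Cxcl2, and 3.86%, 0.931%, 2.83% and 2.34% of Csf3r. The ADU-S100 library was the least concentrated for each of these 6 genes, and it also held the most UMIs of each. The top 1% of cells was 75, 132 and 146 cells in the untreated, anti-LTβR and combination libraries. Cxcl1 had UMIs in only 46, 85 and 98 cells there, and Csf3 in 19, 79 and 41. The top 1% therefore held all UMIs of both genes in these libraries by its size alone, which shows no concentration. After ADU-S100 it held 93.2% of Cxcl1 and 79.6% of Csf3 UMIs. Over all 4 libraries it held 8.52% to 19.96% of Cxcl2 UMIs and 22.7% to 69.7% of Cxcl3 UMIs.

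The top cells were also of different classes. For Cxcr2, 10, 10, 9 and 10 of the 10 top cells were neutrophils, and for Csf3r 8, 10, 9 and 10. For Cxcl3, neutrophils gave 1, 0, 0 and 1 of them while cluster 7 gave 5, 8, 7 and 6. Neutrophils held the largest class share of Cxcl3 UMIs in each library, with cluster 7 kept apart from macrophages. The closest marker list of cluster 7 was that of macrophages. Its share and that of macrophages and monocytes together were larger than that of neutrophils in every library but ADU-S100. The single highest Cxcl3 cell of the untreated library held 452 UMIs, 7.73% of the library's total. For Cxcl1, 6, 1, 2 and 5 of the 10 were non-leukocytes and 4, 7, 4 and 4 macrophages and monocytes. For Csf3, 7, 5, 2 and 5 were neutrophils, with 17, 80, 28 and 27 UMIs, and 1, 2, 2 and 2 were of cluster 7, with 4, 85, 32 and 9 UMIs. Cluster 7 thus held more than the neutrophils among these cells after ADU-S100 and after anti-LTβR, and fewer in the untreated and combination libraries. The highest Csf3 cell held 5, 72, 27 and 10 UMIs.

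**Figure D3:**
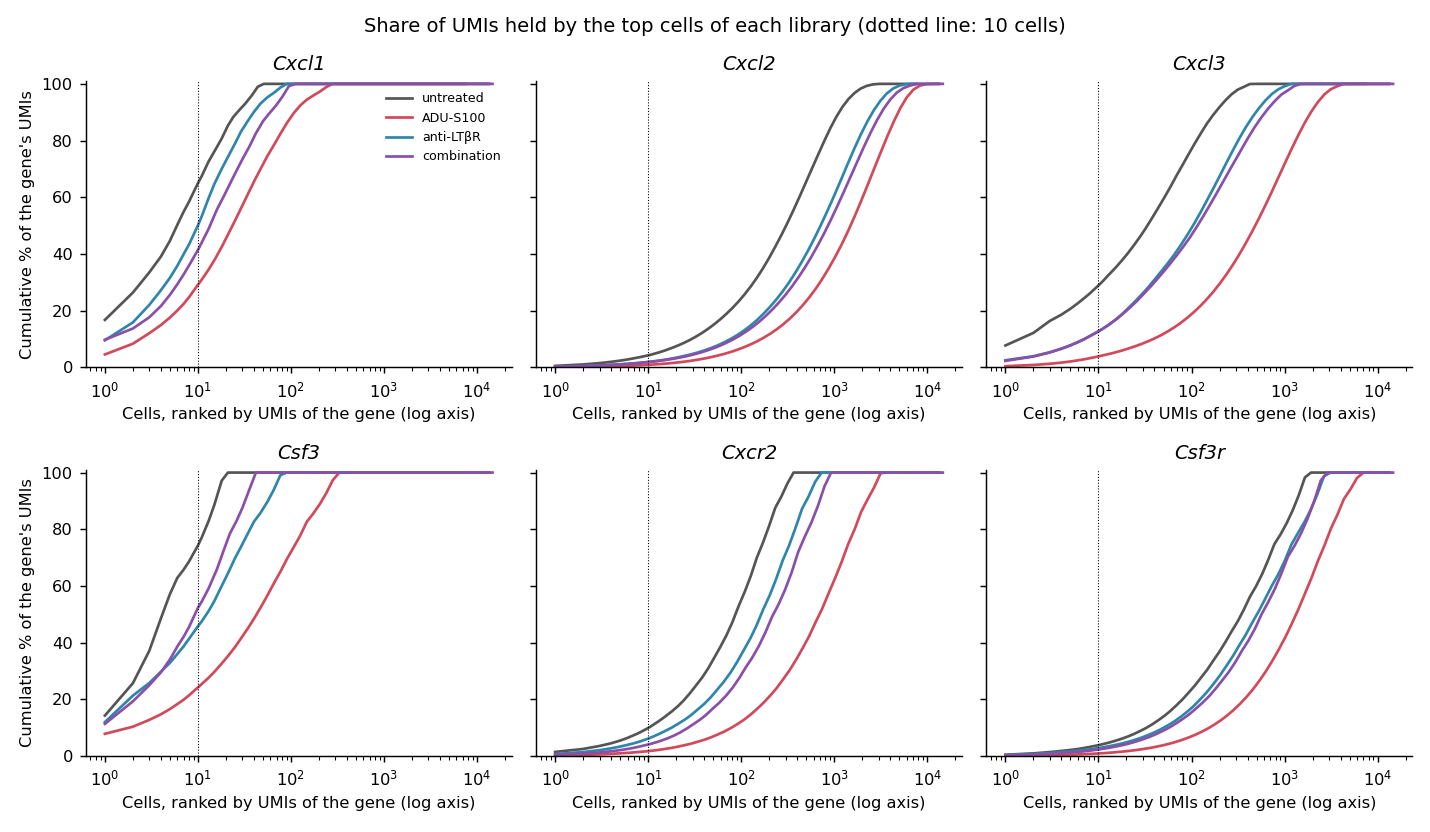
Cumulative percent of each gene's UMIs against the number of cells ranked by their UMIs (log axis), 1 line per library, with a dotted line at 10 cells. Cxcl1 and Csf3 rise steeply, with 24.2% to 74.3% of UMIs in 10 cells, while Cxcl2, Cxcr2 and Csf3r stay below 10% there.

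The comparison of ADU-S100 with untreated tumours asked what the STING agonist alone did to these genes. All 6 genes with at least 200 UMIs were at least 2-fold higher over all leukocytes, against 4.54% of the 11801 genes that passed the same limit, and none was lower, against 8.25%. The difference was 16.7-fold for Cxcl1 (13.4 to 21.4), 16.9-fold for Csf3 (12.2 to 24.7), 9.46-fold for Cxcl3, 6.96-fold for Cxcl2, 6.46-fold for Cxcr2 and 3.93-fold for Csf3r. The median over the 6 was 3.02 on the log2 scale and over all genes -0.38. TMM and median-of-ratios scaling shifted every log2 value by 0.35 and 0.36, and the share of higher among all genes past 2-fold went from 35.5% to 68.3% and 69.2%. Cell makeup differed as well, and neutrophils were 6.55% of kept cells in the untreated library and 39.3% after ADU-S100. With class levels weighted to the makeup of the untreated library, the log2 ratio of Cxcr2 went from 2.69 to 0.16 and that of Csf3r from 1.97 to 0.06. Cxcl2 went from 2.80 to 1.59, Cxcl3 from 3.24 to 1.83 and Csf3 from 4.08 to 2.91, whereas Cxcl1 stayed at 3.95 from 4.06. Cxcl1 and Csf3, with 77 and 35 leukocyte UMIs in untreated tumours, reached the limit of 200 UMIs through the treated libraries, so the counts they enter are descriptions. Over all deposited cells, non-leukocytes included, the Cxcl1 ratio was 1.11, while without the upper limit on genes alone it was 4.21 (3.91 to 4.55) in leukocytes.

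Inside macrophages and monocytes the ligands remained higher after ADU-S100 while the G-CSF receptor did not. Here 4 of 5 genes passed 2-fold upward, against 1.77% of 9918 genes, and none downward, against 1.81%: Cxcl1 by 3.74 (3.40 to 4.13), Cxcl2 by 1.98 (1.96 to 1.99), Cxcl3 by 2.51 (2.44 to 2.59) and Cxcr2 by 1.71 (1.21 to 2.28) on the log2 scale. Cxcr2 met the limit with 37 and 167 UMIs, and its ratio was 1.19 (0.68 to 1.74) without doublet removal. Csf3, below the limit of 200 UMIs, differed by 4.14 (3.17 to 5.57), or by 2.52 (1.57 to 3.78) with finer clusters, and Csf3r by 0.03 (-0.06 to 0.13). The summed neutrophil markers in this class were 499, 1079, 906 and 1088 CPM, and their part in its Cxcr2 was not tested. Inside neutrophils 1 of 6 genes passed upward, against 2.32% of 4350 genes, and none downward, against 3.95%: Cxcl1 by 2.60 (1.05 to 5.98), with 2 UMIs in the untreated library, so that it reached the limit through the ADU-S100 library alone. Cxcl3 differed by 0.97 (0.91 to 1.03) and Cxcl2 by 0.49 (0.47 to 0.50), while Cxcr2 was at -0.29 (-0.39 to -0.18) and Csf3r at -0.24 (-0.31 to -0.16). In dendritic cells both genes measured passed upward, against 1.07% of 6078 (0.444% downward), with Cxcl2 at 1.56 and Cxcl3 at 4.70 (4.07 to 5.48). Cxcl3 had 19 UMIs there in the untreated library and 399 after ADU-S100, so it reached the limit through the ADU-S100 library. Its level was 3.71 and 98.7 CPM in dendritic cells and 0.893 and 24.4 CPM in T cells, which should lack the message. The part of free RNA in this ratio was not tested.

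**Figure D4:**
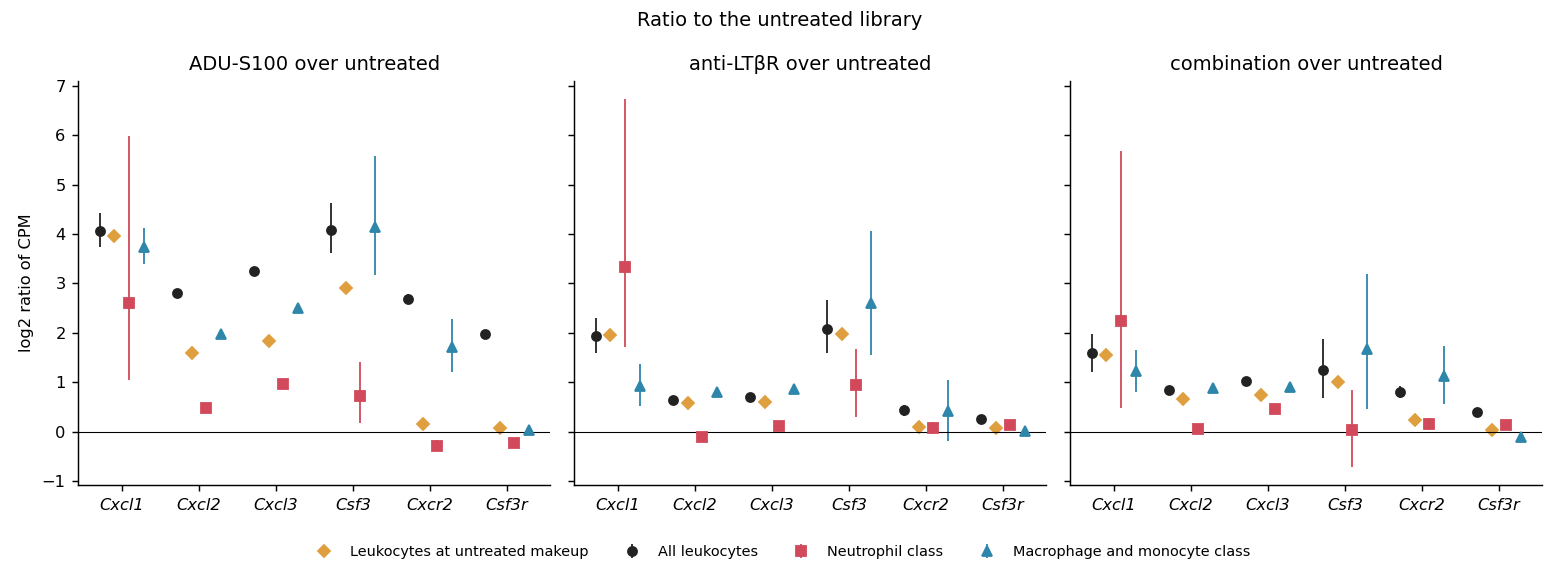
Log2 ratio of CPM to the untreated library for 6 genes, over all leukocytes, at the cell makeup of the untreated library, in neutrophils and in macrophages and monocytes, with exact binomial 95% intervals (none for the makeup values). After ADU-S100 the ratios of Cxcr2 and Csf3r fall from 2.69 and 1.97 to near 0 at untreated makeup, and those of the ligands and Csf3 do not.

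Anti-LTβR gave smaller differences. Over all leukocytes 2 of 6 genes were at least 2-fold higher than in untreated tumours, against 1.72% of 11949 genes, and none was lower, against 0.762%: Cxcl1 by 1.93 (1.58 to 2.31) and Csf3 by 2.09 (1.58 to 2.66). Cxcl2 differed by 0.63, Cxcl3 by 0.70, Cxcr2 by 0.43 and Csf3r by 0.25. The Cxcl1 value turned to -0.89 over all deposited cells. In macrophages and monocytes none of 4 genes passed 2-fold, against 1.04% of genes upward and 0.268% downward. Cxcl1 was at 0.93 there, Cxcl2 at 0.80 and Cxcl3 at 0.85, and Csf3, with under 200 UMIs, differed by 2.59 (1.55 to 4.06). In neutrophils none of 4 passed, against 1.93% and 0.59% of 1863 genes, with Cxcl2 at -0.12 and Cxcl3 at 0.10. In dendritic cells Cxcl2, the 1 gene measured, passed at 1.69, against 1.9% of genes upward and 0.235% downward.

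Over all leukocytes the genes lay after the combination nearer to the anti-LTβR library than to the ADU-S100 library. Against untreated tumours 2 of 5 genes passed 2-fold, against 2.12% of 11624 genes, and none was lower, against 1.45%: Cxcl1 by 1.58 (1.21 to 1.98) and Cxcl3 by 1.02 (0.98 to 1.07). The Cxcl1 value turned to -1.15 over all deposited cells. Csf3 differed by 1.25 (0.68 to 1.87), Cxcl2 by 0.84, Cxcr2 by 0.80 and Csf3r by 0.41. Against ADU-S100, all 6 genes were at least 2-fold lower, against 3.21% of 11771 genes, and none higher, against 4.31%: Csf3 by -2.83, Cxcl1 by -2.48, Cxcl3 by -2.22, Cxcl2 by -1.96, Cxcr2 by -1.89 and Csf3r by -1.57. At the makeup of the untreated library the same values were -1.92 for Csf3, -2.40 for Cxcl1, -1.08 for Cxcl3, -0.92 for Cxcl2, 0.07 for Cxcr2 and -0.03 for Csf3r. In macrophages and monocytes 4 of 6 genes were at least 2-fold lower than after ADU-S100, against 0.781% of genes (1.51% upward), namely Cxcl1 by -2.52, Csf3 by -2.48 (-1.38 with finer clusters), Cxcl3 by -1.61 and Cxcl2 by -1.10. Over untreated, 1 of 4 genes passed upward in macrophages and monocytes, against 1.02% (0.327% downward), which was Cxcl1 at 1.22 (0.80 to 1.66). Cxcl1 reached the limit there through the combination library, so this count is also a description. In neutrophils no gene passed in either direction over untreated (4 genes, against 1.14% and 0.341%) or over ADU-S100 (6 genes, against 2.16% and 2.12%). Neutrophil Cxcl3 was at 0.46 over untreated and Cxcr2 at 0.43 over ADU-S100. In dendritic cells Cxcl2, the 1 gene measured, was at 2.33 over untreated, against 2.62% of genes upward and 0.943% downward. There Cxcl3 was 1 of 2 genes that passed downward over ADU-S100, at -1.71, against 1.56% (2.33% upward), and it turned to 0.39 without its 10 top cells. Against anti-LTβR alone none of the 6 passed 2-fold in either direction, against 0.721% and 0.855% of 11931 genes. Nor did any of 4 genes in macrophages and monocytes (0.25% and 0.22%), of 4 in neutrophils (0.432% and 0.576%) or of 2 in dendritic cells (0.215% and 0.384%). These comparisons share libraries, so their values are set side by side and not counted as separate evidence.

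**Figure D5:**
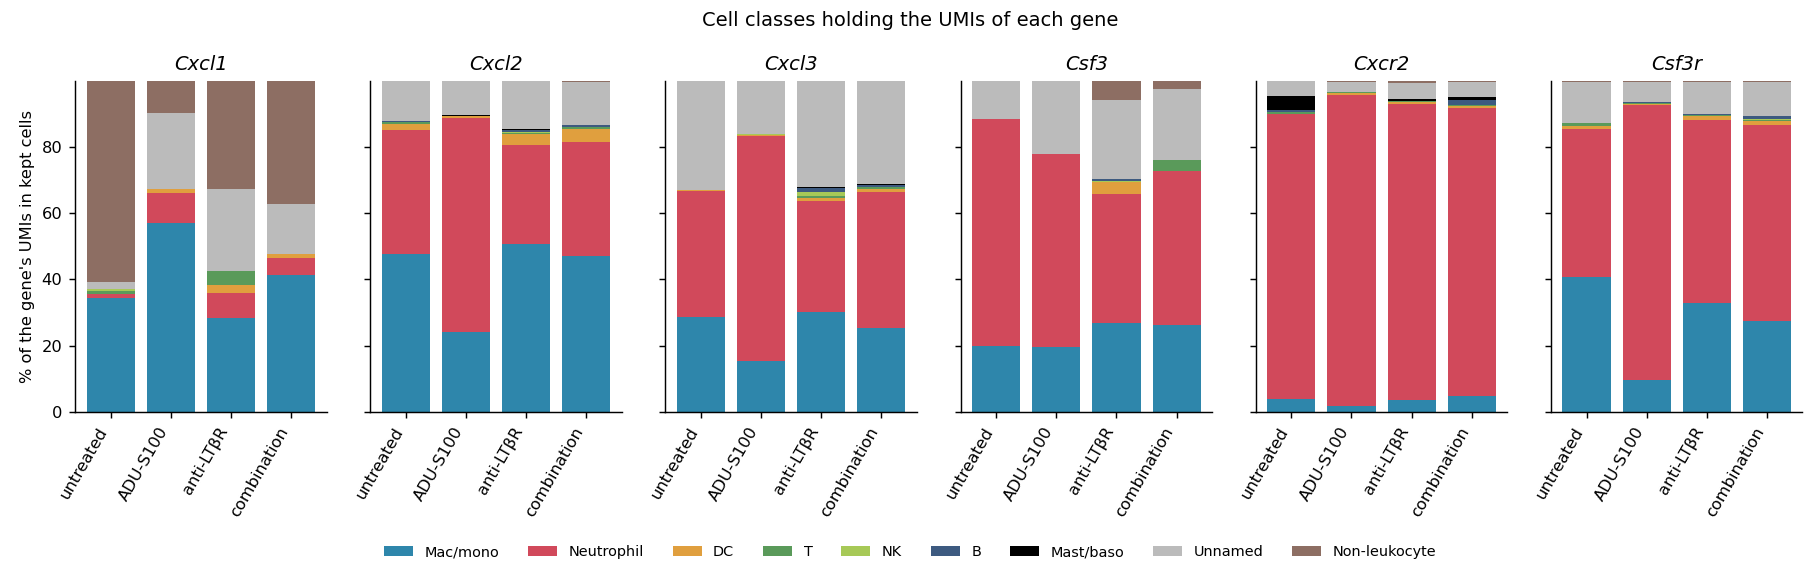
Percent of each gene's kept UMIs held by each cell class, 1 bar per library. Neutrophils hold 86.1% to 94.1% of Cxcr2 UMIs, their part of Cxcl2 goes from 37.4% in the untreated library to 64.9% after ADU-S100, and non-leukocytes hold 60.9% of Cxcl1 UMIs in the untreated library.

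The class shares of UMIs depend on the size of a class as well as on these levels, and did not follow the order of the levels in every library. Neutrophils held 37.4%, 64.9%, 29.8% and 34.7% of Cxcl2 UMIs and 38.0%, 67.8%, 33.6% and 41.1% of Cxcl3 UMIs, while macrophages and monocytes held 47.7%, 24.0%, 50.8% and 47.0% and 28.8%, 15.5%, 30.2% and 25.4%. The ADU-S100 library was the only one of the 4 in which neutrophils held most of the UMIs of Cxcl2 and Cxcl3. For Csf3 they held 68.6%, 58.3%, 39.1% and 46.6%, and for Csf3r 44.7%, 83.2%, 55.2% and 59.3%.

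A wider list of 40 genes around the axis was examined in the same way. Over leukocytes of the ADU-S100 library 13 of 33 measured genes were at least 2-fold higher than untreated, against 4.54% of all genes, and none lower, against 8.25%. Their median log2 ratio was 0.91, against -0.38 over all genes. Inducers of the chemokines gave 6 of 7: Il36g (15.2 and 160 CPM, log2 ratio 3.40), Tnf (57.5 and 261 CPM, 2.18), Il1a (2.05), Il1b (1.78), Il6 (1.64) and Osm (1.00). Il17a, a T-cell cytokine that stabilises these messages, had 8.26, 5.39, 6.05 and 7.80 CPM, a log2 ratio of -0.62 after ADU-S100. Among controls of the messages 3 of 7 passed, Nfkbia (1.96) and Tnfaip3 (1.06), both inhibitors of NF-κB, and Nfkbiz (1.26). None of 6 measured genes of G-CSF receptor signalling passed, with Socs3 at 0.88 and Stat3 at -0.21. Of 11 migration genes the formyl peptide receptors Fpr1 (2.68) and Fpr2 (1.68) and the leukotriene receptor Ltb4r1 (1.10) passed. Cxcr1, the second receptor, was at 0.551 and 5.16 CPM with 94.9% of its UMIs in neutrophils, and the chemokine Pf4 differed by 0.24.

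Within cell classes the counts differed. After ADU-S100 none of 29 measured genes passed 2-fold in neutrophils, against 2.32% upward and 3.95% downward, and 7 of 29 were higher in macrophages and monocytes, against 1.77%, among them Il6 (2.23), Tnf (1.93), Il1a (1.78), Il1b (1.35) and Nfkbia (1.56). Against ADU-S100 the combination had 10 of 34 genes at least 2-fold lower over leukocytes, against 3.21%, and none higher, against 4.31%, with Fpr1 at -2.43, Il36g at -2.35 and Tnf at -2.13. For anti-LTβR and the combination over untreated 1 of 32 leukocyte genes passed each time, Il6 (1.17, against 1.72%) and Il36g (1.05, against 2.12%). Dendritic cells had more, with 4 of 25 higher after anti-LTβR (against 1.9%), namely Il1a (2.40), Il6 (1.94), Zc3h12a (1.14) and Osm (1.07). After the combination 8 of 26 were higher there, against 2.62%, led by Il6 (2.24) and Il1a (2.14), and 1 was lower, against 0.943%. After ADU-S100 4 of 26 were higher in dendritic cells, against 1.07%.

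The patterns of the genes over cells were compared with those of 10170 others, over 112 units of 1 cluster in 1 library with at least 50 cells. Pearson correlations of log2(CPM + 1) are given as descriptions, since units of a library share its depth and free RNA. Cxcl2 was most like Cd14 (0.94), Clec4d (0.92) and Fpr2 (0.91), and Cxcl3 like Hcar2 (0.86), Acod1 (0.85) and Clec4d (0.85). Cxcr2 was most like G0s2 (0.93), Stfa2l1 (0.91) and Il36g (0.91), and Csf3r like Ets2 (0.90), Clec4d (0.90) and Acod1 (0.89). Csf3 was most like Mgam (0.81), Kcnj2 (0.81) and Mirt2 (0.81). Cxcl1 reached 0.60 with Slc6a8, 0.59 with Phlda1 and 0.59 with Cd63, and Cxcl5 0.45 with Pcdh7. Between the genes themselves the correlation was 0.87 for Cxcl2 with Csf3r, 0.86 for Cxcl2 with Cxcl3 and 0.76 for Cxcr2 with Csf3r, while Cxcl1 reached at most 0.40 with any of the others.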

How the data were processed

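The 4 libraries were made with a 10x Genomics 5′ kit, and the authors deposited filtered matrices of raw UMI counts per gene and cell (GEM-X 5′ v3 per the labels, an earlier 5′ kit in the study's methods). The build was mm10, and the matrix headers name Cell Ranger 8.0.1 where the labels give 7.1.0. The study made 2 such experiments, and the first was not analysed here. Groups were taken from the sample labels. The full genotype behind the tumour line and some results of the wider list are not reported here.

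Cells with 300 to 5000 genes and at most 6% mitochondrial UMIs were kept, as in the study, and the cells with the highest Scrublet scores were removed at 0.4% per 1000 deposited cells (305, 949, 857 and 1066), because the caller's own threshold marked 0 or 1 cell per library. Counts were scaled to 10000 per cell and clustered without the 7 genes (2000 variable genes, 30 components, 20 neighbours, Leiden resolution 1, seed 1, scanpy 1.11.5), giving 34 clusters. A cluster was named from at least 3 markers of a list, each 2-fold higher and in at least 10% of its cells, and clusters whose leading genes went against the name stayed unnamed. The named genes, the wider list and all lists and thresholds were chosen with earlier results of these data known.

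UMIs were summed per class and library. With 1 library per group no test was run. Intervals at the 95% level are exact Poisson for CPM, exact binomial for log2 ratios (0.5 UMI added to each side) and Clopper-Pearson for shares of cells, and cover counting error only. The floor was 3 counts. Genes with at least 200 UMIs over both libraries formed the background of each comparison. On simulated counts for ADU-S100 over untreated, with 94 genes changed by 1.5 and 106 by 2 on the log2 scale, 100% of each were called past 2-fold and 0 of 11607 unchanged genes were. The simulation held Poisson counting error alone. It checks the calculation and cannot show how often 2-fold calls arise from spread between tumours or libraries. Class levels were also weighted by each class's share of UMIs in the untreated library. This weighting, the joining of unnamed macrophage clusters and the removal of the top cell of mast cells and basophils were chosen after seeing the data. The top cell shares count all kept cells. TMM factors came from edgeR 4.0.16.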

Additional observations from a re-analysis of the deposited data

Results flagged for a closer look

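Cxcl1 and Csf3 had opposite signs for ADU-S100 given alone (over untreated) and given on top of anti-LTβR (combination over anti-LTβR). With 1 library per group the difference was not tested. Over leukocytes Cxcl1 was at 4.06 alone and at -0.35 on top of anti-LTβR on the log2 scale, the latter turning to 0.52 without its 10 top cells, and Csf3 at 4.08 and -0.84. In macrophages and monocytes Csf3 was at 4.14 and -0.93. In neutrophils Cxcl1 was at 2.60 and -1.09, resting on 2 UMIs in the untreated library and on 1 cell with 39 of 47 UMIs in the anti-LTβR library, and Csf3 was at 0.73 and -0.89. In non-leukocytes Cxcl1 was at 0.84 and -0.37.

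Cells over the limit of 5000 genes took no part in the comparisons above. The level in them exceeded that of the untreated library for several genes and lay below it in other cases. Cxcl1 was at 127 CPM after ADU-S100 against 68.6 CPM in untreated tumours, but at 32.9 CPM after anti-LTβR and 10.6 CPM after the combination. Cxcl2 was at 3080.1 CPM after ADU-S100, 1186 after anti-LTβR and 1112 after the combination, against 913 CPM. Cxcl3 was at 237 CPM after ADU-S100 against 43.1 CPM, and at 42.9 CPM after anti-LTβR and 24.5 CPM after the combination. Cxcl5 was at 14.2 CPM after anti-LTβR against 0.0677 CPM, with 68 of 69 UMIs in 1 cell. Cxcr2 was at 17.6 CPM after ADU-S100 and 4.93 CPM after anti-LTβR, against 1.83 CPM. Csf3 was at 2.56 CPM after ADU-S100 against 0.339 CPM, and Csf3r at 57.4 CPM against 30.9 CPM. After anti-LTβR and the combination Csf3r was lower than untreated, at 21.2 and 24.5 CPM, with an interval overlapping that of untreated for the combination.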

How the results depend on the processing

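No paired analysis was possible because each group has 1 library. Of 698 recomputed log2 ratios 399 stayed within the counting interval of the main value. Another 281 left it, by growing or by shrinking, and 18 changed sign where the whole main interval had 1 sign. Sign changes where the main interval held both signs are not among the 18. The cause of these changes was not tested. Over leukocytes Cxcl1 turned to -0.89 (anti-LTβR) and -1.15 (combination) over untreated with all deposited cells, and to 0.52 (combination over anti-LTβR) without its 10 top cells. Csf3r turned to -0.043 and -0.023 (anti-LTβR and combination over untreated) without neutrophils, and at untreated makeup to -0.025 (combination over anti-LTβR), where Cxcr2 turned to 0.070 (combination over ADU-S100). In macrophages and monocytes Csf3r (combination over untreated) turned to 0.0038 without the upper gene limit. With classes set without clusters, neutrophils turned to -0.064 for Cxcl3 and -0.015 for Csf3r (anti-LTβR over untreated) and to -0.045 for Cxcl2, -0.0074 for Cxcr2 and -0.030 for Csf3r (combination over untreated). Cxcl2 in neutrophils also turned to -0.081 (combination over untreated) without doublet removal. In dendritic cells Cxcl3 turned to -0.28 (anti-LTβR over untreated) without the upper limit, and for the combination over ADU-S100 Cxcl1 turned to 0.32 at resolution 2, Cxcl2 to -0.74 without clusters and Cxcl3 to 0.39 without its 10 top cells.

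Counts of the 7 genes past 2-fold changed as follows, out of those with at least 200 UMIs in the main setting. Over leukocytes they became 1 higher for anti-LTβR and 1 lower for the combination over untreated (all deposited cells), 1 higher for the combination over untreated (without neutrophils, and at untreated makeup), 3 lower over ADU-S100 (untreated makeup), and 1 lower for the combination over anti-LTβR (without clusters, and without the 10 top cells). In macrophages and monocytes anti-LTβR over untreated had 1 higher without the upper limit, at resolution 2, without clusters and with unnamed clusters joined, and 2 without the 10 top cells. The combination over untreated had 2 higher without doublet removal, without the upper limit and without the 10 top cells, and over anti-LTβR 1 higher without the 10 top cells. In neutrophils ADU-S100 over untreated had 3 higher and the combination 2 lower than ADU-S100 without the 10 top cells, and 1 lower without doublet removal. In dendritic cells ADU-S100 over untreated had 1 higher at resolution 2, and the combination over ADU-S100 had 0 lower without clusters, and 1 higher and 0 lower without the 10 top cells.

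The share of all genes past 2-fold depended on the UMI limit. With at least 20 UMIs, anti-LTβR had 3.32% higher and 2.89% lower, the combination 3.79% higher and 4.05% lower than untreated, 7.52% higher and 5.45% lower than ADU-S100, and 1.49% higher and 2.47% lower than anti-LTβR. With at least 1000 UMIs the lower share was 4.50% for ADU-S100, 0.503% for anti-LTβR, 0.788% for the combination over untreated and 0.497% over anti-LTβR, and the higher share 1.06% for anti-LTβR and 2.52% for the combination over ADU-S100. TMM and median-of-ratios scaling moved the higher share of calls from 59.5% to 73.1% and 73.4% (combination over untreated) and from 57.3% to 38.5% and 37.5% (combination over ADU-S100).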
